A study of Mus musculus with 6 samples.

Results

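*Stra8* and *Gm4969*, the symbol under which *Meiosin* stands in the gene table, form the pair of transcription regulators that starts meiosis. They were taken by name, 2 of the 54532 genes of the table. They had been picked because their FPKM was already known to be higher in cKO than in Ctrl ovaries in these same libraries, so that difference is given as a description with no test. RNA came from whole ovaries of C57BL/6 mouse fetuses at 16.5 dpc, in 3 Ctrl libraries, whose genotype label reads wild type, and 3 cKO libraries. In the cKO mice the *Stra8-GFPCre* transgene deletes exons from the *Srsf1* Fl/Fl alleles in germ cells as they begin meiosis. By this design the somatic cells of the ovary should keep *Srsf1*, which was not tested here. Since the Cre is driven from *Stra8* sequence and the Ctrl mice are labelled wild type, loss of *Srsf1*, the presence of the transgene and any reads of *Stra8* sequence from the transgene cannot be told apart. The study speaks of 3 biological replicates per genotype. It does not say whether a library pooled several fetuses.

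In the fetal ovary, germ cells stop dividing, copy their DNA a last time and enter meiotic prophase. Retinoic acid, bound by its nuclear receptors, and BMP signals acting through the regulator ZGLP1 switch on *Stra8* in germ cells that DAZL has made competent, and STRA8 then binds MEIOSIN to activate genes of the meiotic programme. In wild-type ovaries *Stra8* is switched on for a short time and declines once germ cells have advanced into prophase, and before entry Polycomb-type complexes with MAX, MGA and E2F6 hold meiotic genes silent.

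*Stra8* (ENSMUSG00000029848) occupies bases 34920163 to 34939344 of the plus strand of chromosome 6 (GRCm38). GENCODE M21 gives it 4 transcripts, all protein coding, and 10 exons in the longest. *Gm4969* (ENSMUSG00000085601, *Bhmg1* in RefSeq) occupies bases 19099046 to 19118368 of the minus strand of chromosome 7, with 14 exons in its 1 coding transcript and 1 further transcript marked for nonsense-mediated decay. No other annotated gene overlaps either of them, so their reads were not shared with a neighbour. The closest genes, *Wdr91* and *Slc23a4* beside *Stra8* and *Six5* and *Fbxo46* beside *Gm4969*, had log2 differences between cKO and Ctrl of -0.37, -0.03, 0.25 and -0.15. The table counts all transcripts of a gene together, and so the isoforms of the pair could not be separated here. The study's own splicing analysis lists a skipped exon of *Gm4969* among the events changed in cKO. It also lists such events in *Dazl*, used below as a reference, and in *Gm7972*. *Stra8* is not among the events listed.

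The stretches around the regulatory motifs found in the promoters are shown because the pathways that read these motifs are described further on. They come from RefSeq (GRCm38.p6), which has a promoter window of 250 bases before to 50 bases after the start for both genes. Each is 30 bases long, written 5′ to 3′ on the strand of the gene, with the motif in capitals. In the window of *Stra8* (chr6:34920698-34920997, plus strand) the half-site AGGTCA, which retinoic acid receptors bind, occurred at 194 and at 38 bases before the start. The RefSeq start of *Stra8* lies inside the gene span given above, so both stretches fall within the annotated gene. In the window of *Gm4969* (chr7:19118295-19118594, minus strand) there were the E-box CACGTG of MAX and its partners at 171 bases, the E2F site GGCGGGAA at 71 bases and the motif CNCCTCAG, known from STRA8 binding, at 44 bases before the start.
Stra8, AGGTCA, chr6:34920742-34920771, plus strand: gatggggtgaaaAGGTCAtcttgctccttc
Stra8, AGGTCA, chr6:34920898-34920927, plus strand: gcctggggtaccAGGTCAgttttttacctg
Gm4969, CACGTG, chr7:19118498-19118527, minus strand: cgggagcgggagCACGTGtcggagctgtgg
Gm4969, GGCGGGAA, chr7:19118397-19118426, minus strand: tggcaccgcgtGGCGGGAAcgtggaggggg
Gm4969, CNCCTCAG, chr7:19118370-19118399, minus strand: gggcgtggcctCGCCTCAGgcgctctggtg

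All 4 motifs were searched on both strands, and no match overlapped another. No window held a motif of the other gene: AGGTCA was absent from that of *Gm4969*, and the other 3 from that of *Stra8*. Of the 32851 promoter windows of the same length, 16.3% held AGGTCA, 7.94% CNCCTCAG, 7.15% CACGTG and 2.19% GGCGGGAA. The window of *Gm4969* was rich in G and C, at 70.3%, while that of *Stra8* had 55.7% and the median window 52.7%. A match describes letters, and binding was not measured.

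Libraries held 15548757 to 16756795 reads on genes in Ctrl, against 14212164 to 16784241 in cKO. *Srsf1*, the deleted gene, had a lower FPKM in every cKO than in every Ctrl library, with a log2 difference of -0.99 (SE 0.13, limma, unadjusted p = 0.000158, Benjamini-Hochberg adjusted p = 0.497). Its FPKM was 80.2, 70.1 and 63.1 in Ctrl 1, 2 and 3, against 32.4, 37.0 and 36.4 in cKO 1, 2 and 3. Which cells the lost reads came from was not tested. Germ-cell RNA varied widely within each genotype: the summed FPKM of 10 general germ-cell markers was 75.7 to 285 in Ctrl, against 141 to 424 in cKO, lowest in Ctrl 1 among Ctrl and in cKO 2 among cKO. Those same libraries had the most haemoglobin and red-cell RNA of their groups, 23322 in Ctrl 1 and 10478 in cKO 2, over 10 genes. However, cKO 3, with the highest germ-cell sum, was close to cKO 2 at 9962. All 10 pregranulosa markers were expressed, at 474 to 556 in Ctrl, against 468 to 626 in cKO. The protocol text of the labels names retina, but the 8 retinal genes summed to 0.138 to 0.734 over all libraries and *Crx*, a defining one, was at 0. In whole-ovary RNA, fewer germ cells and less RNA per germ cell cannot be told apart.

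The level of *Stra8* was low in Ctrl ovaries and several times higher in cKO ovaries. Its FPKM was 2.96, 2.12 and 9.21 in Ctrl 1, 2 and 3, against 17.5, 11.6 and 38.7 in cKO 1, 2 and 3. Every cKO library lay above every Ctrl library, but the margin between the nearest of them, Ctrl 3 and cKO 2, was small. These values rested on 80, 62 and 290 reads in Ctrl, against 487, 350 and 991 in cKO, and the 95% exact Poisson intervals, which cover counting error only, reached up to 10.3 in Ctrl 3 and down to 10.4 in cKO 2. The only intervals that overlapped were those of Ctrl 1 and Ctrl 2, at 2.35 to 3.68 and 1.63 to 2.72. From lowest to highest the order was Ctrl 2, Ctrl 1, Ctrl 3, cKO 2, cKO 1 and cKO 3. Group means were 4.76 ± 3.87 and 22.6 ± 14.3 (SD, n = 3), a ratio of 4.74, and the difference on the log2(FPKM + 1) scale was 2.06 (SE 0.56). It was 1.60 without cKO 3 and 2.58 without Ctrl 3, the lowest and highest values with a library left out.

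*Gm4969* was better expressed than *Stra8* in each of the 6 libraries and showed the same split between genotypes. Its FPKM was 9.00, 16.8 and 23.1 in Ctrl 1, 2 and 3, from 634, 1279 and 1892 reads, against 83.7, 33.7 and 63.1 in cKO 1, 2 and 3, from 6074, 2655 and 4204 reads. Again the groups did not overlap, and with more reads than for *Stra8* in each library no counting interval touched another. The gap between Ctrl 3, with an interval up to 24.1, and cKO 2, with one from 32.4, was wider than for *Stra8*. Means were 16.3 ± 7.05 and 60.1 ± 25.1 (SD, n = 3), a ratio of 3.69, and the log2 difference was 1.82 (SE 0.42), with 1.47 if Ctrl 1 was left out and 2.18 if cKO 2 was, the lowest and highest such values. Of the 17180 genes tested, which averaged 0.5 FPKM or more over the 6 libraries, 788 (4.59%) likewise had all cKO above all Ctrl libraries, 5 had a log2 difference of at least that of *Stra8* and 7 of at least that of *Gm4969*, the pair included. The pair was chosen on this contrast, and nothing is read from these counts.

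**Figure D1:**
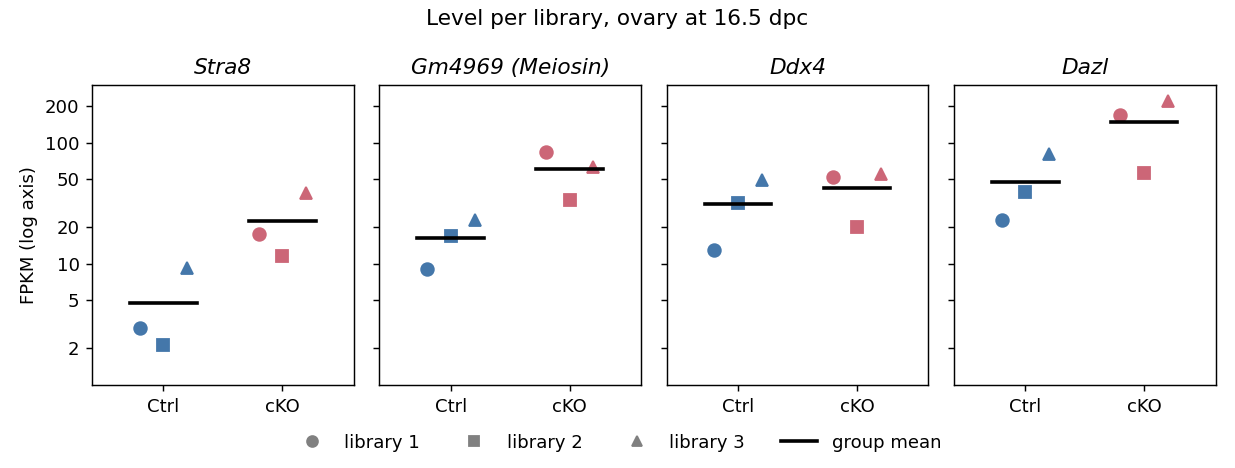
FPKM on a log axis of *Stra8*, *Gm4969* (*Meiosin*) and the germ-cell genes *Ddx4* and *Dazl* in each of the 3 Ctrl (blue) and 3 cKO (red) libraries, with the arithmetic group mean as a line. For *Stra8* (2.12 to 9.21 against 11.6 to 38.7) and *Gm4969* (9.00 to 23.1 against 33.7 to 83.7) the groups do not overlap, whereas for *Ddx4* and *Dazl* they do.

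Both genes were lowest in cKO 2 among cKO libraries and highest in Ctrl 3 among Ctrl libraries, but they differed in which library was the highest of all. This was cKO 3 for *Stra8* and cKO 1 for *Gm4969*. The ratio of *Gm4969* to *Stra8* FPKM was 3.04, 7.92 and 2.51 in Ctrl 1, 2 and 3, against 4.79, 2.91 and 1.63 in cKO 1, 2 and 3. The groups overlapped, with the highest ratio in Ctrl 2 and the lowest in cKO 3. On the log2 scale the group means of the ratio differed by -0.25, with SDs of 0.71 and 0.75, and the sign turned without Ctrl 2 (0.16) or without cKO 3 (0.14).

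The next question was how the pair stood against the germ-cell content of each library. *Ddx4*, an RNA helicase of germ cells, had an FPKM of 13.1, 31.5 and 49.0 in Ctrl 1, 2 and 3, against 51.9, 20.2 and 55.1 in cKO 1, 2 and 3. Its groups overlapped, and its log2 difference of 0.49 (SE 0.55) did not pass the test (limma, unadjusted p = 0.403, adjusted p = 0.981), with a value of -0.02 without Ctrl 1. *Dazl*, the RNA-binding protein that makes germ cells competent for meiosis, had an FPKM of 23.0, 39.1 and 80.0 in Ctrl, against 169, 56.8 and 219 in cKO. Its groups overlapped at Ctrl 3 and cKO 2, and its log2 difference of 1.60 (SE 0.61) passed the unadjusted limit of 0.05 (limma, unadjusted p = 0.0345, adjusted p = 0.978). The call was lost once Ctrl 1, Ctrl 2, cKO 1 or cKO 3 was left out, where the log2 difference was 1.18, 1.55, 1.40 and 1.21. The mean log2 level of both references differed by 1.04, with an exact two-sided permutation p of 0.3, where 0.1 is the smallest that 3 against 3 libraries allow.

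Per unit of *Ddx4* RNA, the pair was still higher in every cKO library. *Stra8* reached 0.226, 0.0674 and 0.188 of the FPKM of *Ddx4* in Ctrl 1, 2 and 3, against 0.337, 0.571 and 0.703 in cKO 1, 2 and 3, with means of 0.161 ± 0.0829 and 0.537 ± 0.185 (SD, n = 3). *Gm4969* reached 0.689, 0.534 and 0.471 in Ctrl, against 1.61, 1.66 and 1.15 in cKO, with means of 0.565 ± 0.112 and 1.47 ± 0.286 (SD, n = 3). The ratio of the means was thus 3.34 for *Stra8* and 2.61 for *Gm4969*, lower than those of the undivided levels. The groups overlapped for neither gene, and cKO 2, the cKO library with the least of both members, came between the other cKO libraries for *Stra8* and above them for *Gm4969*. Among all 17180 genes tested, 128 (0.745%) had all cKO above all Ctrl libraries after division by *Ddx4*. As the numerator is the measure that chose the pair, this is a description too.

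Per unit of *Dazl* RNA the groups overlapped for both genes. *Stra8* over *Dazl* was 0.129, 0.0543 and 0.115 in Ctrl 1, 2 and 3, against 0.104, 0.204 and 0.177 in cKO 1, 2 and 3, and cKO 1 lay within the Ctrl values. *Gm4969* over *Dazl* was 0.392, 0.430 and 0.288 in Ctrl, against 0.496, 0.594 and 0.288 in cKO, where the lowest cKO value lay just under the lowest Ctrl value. The ratios of the means were 1.62 and 1.24. *Dazl* itself stood higher against *Ddx4* in cKO. Its ratio to *Ddx4* was 1.76, 1.24 and 1.63 in Ctrl, against 3.25, 2.80 and 3.98 in cKO, with no overlap and a ratio of means of 2.17. After division by *Dazl*, 7 genes (0.0407%) had all cKO above all Ctrl libraries, and neither member was one of them.

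**Figure D2:**
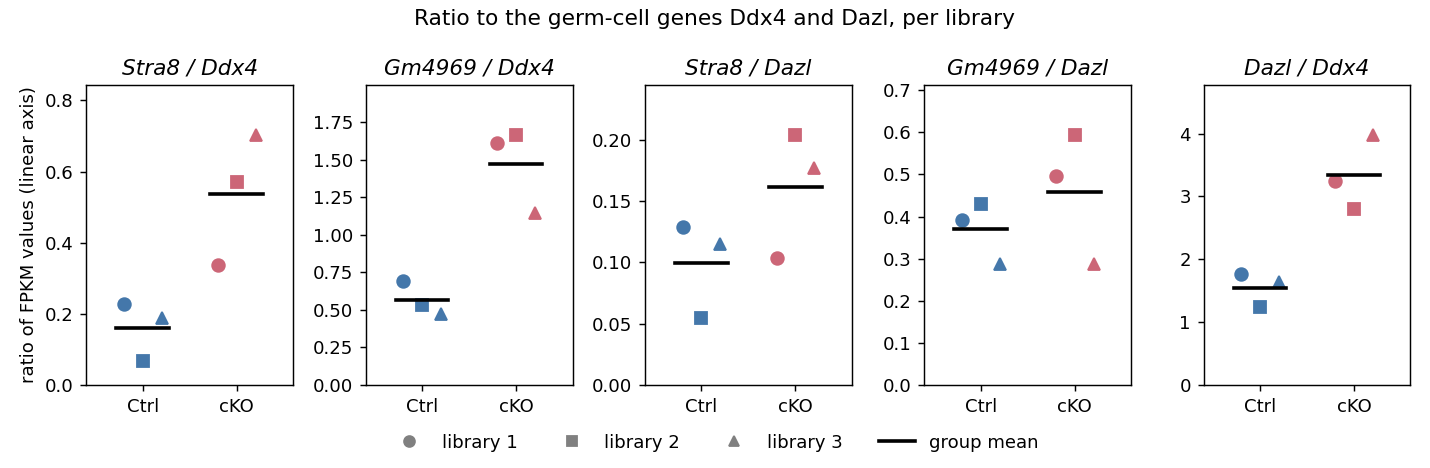
Ratios of FPKM values per library, each panel on its own linear axis from 0, for the pair over *Ddx4*, the pair over *Dazl* and *Dazl* over *Ddx4*, in Ctrl (blue) and cKO (red) with the group mean as a line. In the 3 panels divided by *Ddx4* the groups do not overlap, and in both panels divided by *Dazl* they do.

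Against broader references the result followed that for *Ddx4*. Neither is an independent check: the 10 germ-cell genes include *Ddx4* and *Dazl*, and the prophase genes are taken below as downstream of the pair. Over the mean log2 level of 10 general germ-cell genes, which itself differed by 0.42, *Stra8* was higher by 1.65 and *Gm4969* by 1.40, and neither overlapped between groups. Over the mean of the 38 early prophase genes, which differed by 0.57, the values were 1.50 and 1.25, again with no overlap. *Gm4969* was steady within genotypes on this last scale, at 0.19, 0.35 and 0.13 in Ctrl, against 1.65, 1.52 and 1.26 in cKO. Over the mean of *Ddx4* and *Dazl* the difference was 1.02 for *Stra8*, with overlapping groups, and 0.78 for *Gm4969*, without overlap. The size of the difference per germ-cell RNA therefore depended on the reference, and for both members it was smallest over *Dazl* alone, at 0.47 for *Stra8* and 0.22 for *Gm4969*.

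Genes that act upstream of the pair gave almost no calls. Whole-ovary RNA does not tell which cells their reads came from, so a difference confined to germ cells could be missed. Of 18 retinoic acid pathway genes, 14 were tested and none passed the unadjusted limit in either direction in limma or under voom, with a median log2 difference of 0.03 and a range from -0.27 (*Rxrb*, a retinoid X receptor) to 0.22 (*Aldh1a2*, an enzyme that makes retinoic acid). *Aldh1a1*, a further such enzyme, had mean FPKM values of 74.1 ± 23.9 and 74.6 ± 16.9 (SD, n = 3), and *Rara*, a receptor for the ligand, had a log2 difference of 0.03. *Cyp26b1*, which degrades retinoic acid, was low at 0.885, 0.969 and 1.42 in Ctrl, against 1.32, 1.42 and 1.25 in cKO. *Rarb*, *Rxrg*, *Cyp26a1* and *Cyp26c1* were under the minimum. Over all 17180 genes, 460 (2.68%) were higher and 301 (1.75%) lower in cKO at this limit, the median was -0.01, and none passed an adjusted p of 0.05 in limma or under voom, where 724 passed the unadjusted limit. At shares of 2.68% and 1.75%, a list this short can hold no call without differing from all genes. The same holds for the short lists below.

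The BMP pathway likewise held no call, beside 2.68% of all genes higher and 1.75% lower in limma. Of its 17 genes 16 were tested, none passed in either direction in limma or under voom, and the median was 0.04. *Bmp2*, a ligand made by pregranulosa cells, had a log2 difference of 0.02, its receptor *Bmpr1a* 0.11, and the target genes *Id1* and *Msx1* -0.28 and 0.31, the ends of the range. *Zglp1* was at most 0.123 FPKM in any library and was not tested.

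The repressors of meiotic genes gave no call either, beside 2.68% of all genes higher and 1.75% lower in limma. None of the 13 passed in either direction, in limma or under voom, and their median was 0.08. *Max* and *E2f6*, whose products recognise the kinds of site printed above for *Gm4969*, had log2 differences of 0.01 and 0.08, *L3mbtl2* 0.22 and the methyltransferase gene *Ehmt2* -0.14. The widest difference was that of *Mga*, the partner of MAX in the complex, at 0.58 (SE 0.28, limma, unadjusted p = 0.0755, adjusted p = 0.978), with overlapping FPKM values of 8.97, 11.7 and 13.5 in Ctrl, against 22.8, 11.2 and 20.1 in cKO.

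Of the 9 genes for competence and RNA control at meiotic entry, 8 were tested and *Dazl* alone passed, in the higher direction, with a median of 0.28. Among all genes, 2.68% were higher and 1.75% lower. *Meioc*, which with *Ythdc2* clears mitotic transcripts as meiosis begins, had an FPKM of 9.56, 20.4 and 36.1 in Ctrl, against 67.3, 16.2 and 58.1 in cKO, and its log2 difference of 1.02 (SE 0.64, limma, unadjusted p = 0.155, adjusted p = 0.978) did not pass. *Ythdc2* differed by 0.44, *Rbm46* by 0.36, *Nanos3* by 0.09, *Tet1* by 0.02 and *Cnot1* by 0.00. Without cKO 2, 3 of the 8 passed, and without Ctrl 1, Ctrl 2, cKO 1 or cKO 3 none did.

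**Figure D3:**
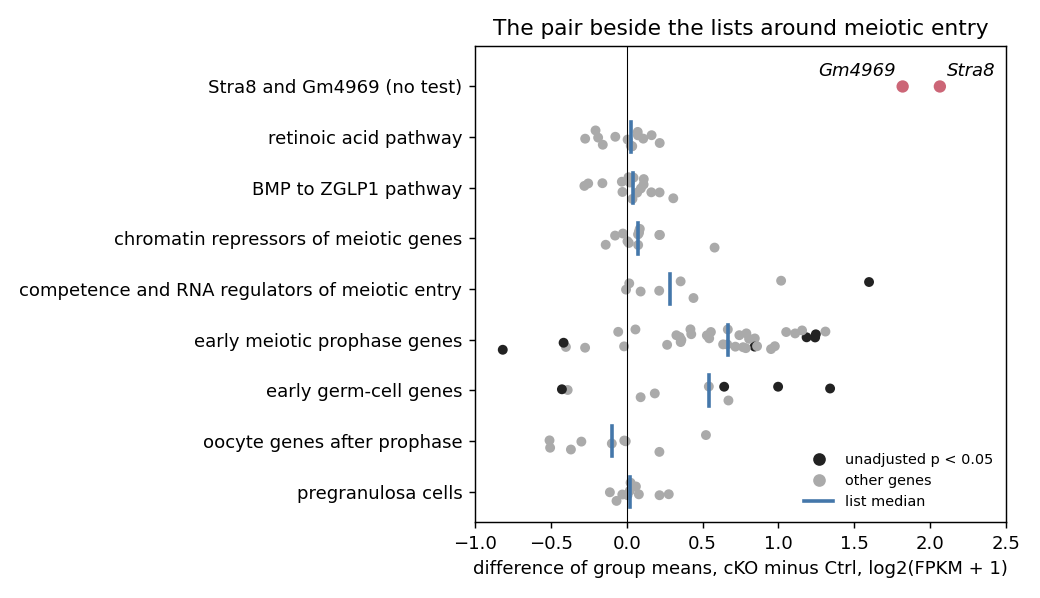
Difference of group means on the log2(FPKM + 1) scale, cKO minus Ctrl, for the pair (red, no test) and for each tested gene of 8 lists, with the list median as a blue bar and genes past the unadjusted limit in black. The pair, chosen for this difference, lies at 2.06 and 1.82, and the medians of the retinoic acid, BMP and repressor lists lie at 0.03, 0.04 and 0.08.

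Downstream, the genes that build the meiotic prophase chromosome were higher in part and lower in a few cases. Of the 38 tested, 4 passed the unadjusted limit in the higher direction and 2 in the lower, beside 2.68% and 1.75% of all genes, 32 had a value above 0, and the median was 0.66. Those higher were *Syce1* (1.19), *Syce2* (0.84) and *Tex12* (1.25), which encode the central element of the synaptonemal complex, and *Ccdc36* (1.24), also called *Iho1*, needed to make meiotic DNA breaks. Their unadjusted p values in limma were 0.0236 to 0.0343, each with an adjusted p of 0.978, and their groups overlapped. *Psmc3ip* (-0.82) and *Mnd1* (-0.42), whose products form one complex that helps DMC1 in strand exchange, were lower, with limma unadjusted p values of 0.0121 and 0.0499. The count of 4 was decided by single libraries: it was 0 without Ctrl 1, Ctrl 2, cKO 1 or cKO 3, 12 without Ctrl 3 and 22 without cKO 2. *Syce1*, *Syce2*, *Tex12*, *Ccdc36* and *Psmc3ip* each overlap a gene on the opposite strand, and no source used here says whether reads were assigned by strand.

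The nearest of these 38 genes to the pair, which had been chosen for its large difference, was *Rad21l*, a meiotic cohesin subunit, at 1.31 (SE 0.59, limma, unadjusted p = 0.0624, adjusted p = 0.978). *Rec8*, another cohesin gene that retinoic acid can induce without STRA8, ranked the libraries in another order. Its FPKM was 50.7, 17.4 and 20.8 in Ctrl 1, 2 and 3, against 12.5, 47.5 and 17.0 in cKO 1, 2 and 3, highest in Ctrl 1 and cKO 2, the library lowest in *Ddx4* of each genotype. Its log2 difference was -0.27, in contrast to 1.82 and 2.06 for the pair. By RT-qPCR relative to *Gapdh*, the study reports, among genes of this list, *Rec8*, *Psmc3ip* and *Six6os1* as lower in cKO, and *Syce1* and *Hormad2* as higher. *Six6os1*, listed here as *4930447C04Rik*, had the other sign in these libraries. Its log2 difference was 0.43 (SE 0.67, limma, unadjusted p = 0.548, adjusted p = 0.986), with overlapping groups.

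Once divided by *Ddx4*, a measure chosen after the values had been seen, the prophase genes separated further. All cKO libraries lay above all Ctrl libraries for 11 of 38, against 0.745% of all genes, and below for *Syce3*, *Spo11* and *Msh4*, against 2.25%. Among the 11 were *Rad21l* (ratio of means 1.82), *Ccdc36* (1.79), *Tex12* (1.72), *Hormad2* (1.67), *Syce1* (1.66) and *Prdm9* (1.58), genes for the chromosome axis, the central element and the sites of breaks. *Spo11*, the enzyme that cuts the DNA, held 0.336, 0.340 and 0.340 of the *Ddx4* level in Ctrl, against 0.289, 0.248 and 0.185 in cKO. *Syce3*, another central element gene, had a ratio of 0.549 and *Msh4*, which acts on crossovers, one of 0.679. The median over the list was 1.17. Division by *Dazl* was not examined for these genes. *Dazl* itself had a ratio of means of 2.17 over *Ddx4*, higher than any of the 11. As for the pair, the separation may therefore depend on the reference. The share over all genes is no like measure for germ-cell genes, here or elsewhere after division by *Ddx4*. It includes genes of other cells, such as *Foxl2* of pregranulosa cells. The ratio of *Foxl2* to *Ddx4* was 4.73, 1.85 and 1.02 in Ctrl, against 0.915, 3.69 and 1.05 in cKO. General germ-cell genes were also set apart by this division: besides *Ddx4* itself that list holds 9, of which 2 (*Dazl* and *Rnf17*) had all cKO above all Ctrl libraries and 4 (*Gtsf1*, *Asz1*, *Tdrd1* and *Piwil2*) all below, and of the 8 competence genes *Dazl* and *Meioc* were above.

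**Figure D4:**
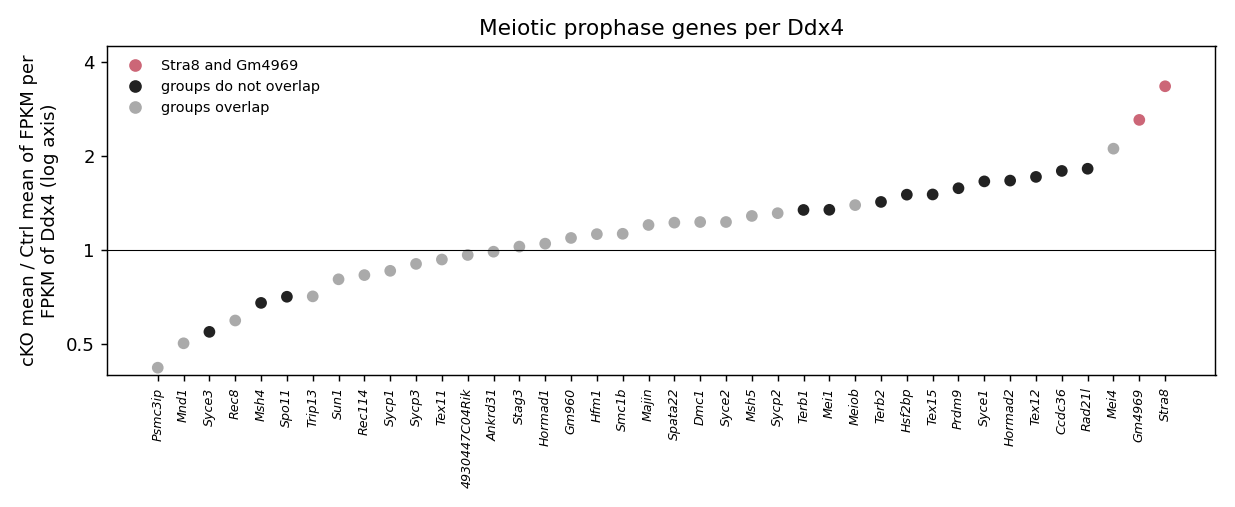
Ratio of the cKO to the Ctrl mean of FPKM per FPKM of *Ddx4*, on a log axis, for the 38 early prophase genes and the pair, sorted from lowest to highest. Black points mark genes whose groups do not overlap, 11 above and 3 below 1, and the pair (red) stands at the upper end with 2.61 and 3.34.

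Genes of an earlier germ-cell state were scarce, and some of them were higher in cKO. Of 13, 9 were tested, 3 passed in the higher and 1 in the lower direction, beside 2.68% and 1.75% of all genes, and the median was 0.54. *Dppa3*, which guards the germline epigenome, had an FPKM of 0.897, 0.138 and 1.54 in Ctrl, against 2.68, 1.67 and 8.05 in cKO. Its log2 difference was 1.34 (SE 0.50, limma, unadjusted p = 0.0312, adjusted p = 0.978), and the groups did not overlap. Its highest library was cKO 3, as for *Stra8* but also for *Ddx4* and *Dazl*. *Utf1*, a chromatin factor of pluripotent and germ cells, had 0.109, 0.654 and 0.840 in Ctrl, against 1.69, 1.17 and 3.62 in cKO, also without overlap, with a log2 difference of 1.00 (SE 0.33, limma, unadjusted p = 0.0197, adjusted p = 0.978). *Lin28a*, an RNA-binding regulator of let-7 with an antisense neighbour, differed by 0.64 (limma, unadjusted p = 0.0427, adjusted p = 0.978). *Kit*, the receptor for the ligand of pregranulosa cells, was the one that was lower, by -0.43 (limma, unadjusted p = 0.0215, adjusted p = 0.978), and *Pou5f1* had a value of 0.67 that did not pass. The count of 3 fell to 0 without Ctrl 1 and to 1 without Ctrl 2 or cKO 3, and *Kit* was not called once Ctrl 1, Ctrl 2, Ctrl 3 or cKO 1 was left out. Per *Ddx4*, 2 of the 9 (*Utf1* and *Lin28a*) had all cKO above all Ctrl libraries, beside 0.745% of all genes, and *Utf1* at 3.37, *Sox2* at 2.89 and *Dppa3* at 2.68 had ratios above that of *Gm4969*, the last 2 with overlapping groups. These 3 genes had 2 to 24 reads per library in Ctrl and 13 to 102 in cKO, so their ratios carry large counting error.

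Genes that oocytes use after prophase gave no call, beside 2.68% of all genes higher and 1.75% lower in limma. Of 16, 9 were tested and none passed in either direction, in limma or under voom, with a median of -0.10 and values from -0.51 (*Sohlh1*, a regulator of early oocytes) to 0.52 (*Sohlh2*, its partner). *Figla*, which oocytes need to form follicles, differed by -0.01. Per *Ddx4*, *Nobox* and *Lhx8*, 2 of the 9, had all cKO below all Ctrl libraries, beside 2.25% of all genes, from 4 to 67 reads per library for *Nobox* and 10 to 79 for *Lhx8*. The pregranulosa list, the somatic partner of the oocytes, had a median of 0.02 with none of 10 passing, and the 4 tested of 5 testis somatic genes had one of 0.04 and also no call. Of the remaining lists, stroma (-0.13), endothelium (-0.01) and macrophages (-0.29) held no call, mesonephros (-0.31) held *Gata3* as lower, and red blood cells (-0.73) held *Hbb-y* as higher. The part of these cells in the levels of the pair was not tested.

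The genes whose levels moved most like the pair were found by the root-mean-square difference between centred log2(FPKM + 1) profiles over the 6 libraries, a measure that includes the difference between genotypes. For *Stra8* the closest was *Tuba3a*, an alpha-tubulin gene, at 0.295, with FPKM values of 10.5, 7.78 and 20.3 in Ctrl, against 30.8, 26.7 and 68.5 in cKO. It ranked the 6 libraries exactly as *Stra8* did, and it overlaps *4930417O13Rik* on the opposite strand. *Gm23722* (0.439), *Dppa3* (0.457), *Cdkn2a* (0.480) and *Dppa5a* (0.489) came next. *Cdkn2a*, which encodes inhibitors of the cell cycle, had 3.24, 2.42 and 5.18 in Ctrl, against 10.8, 9.25 and 16.0 in cKO, in the same order of libraries again. *Dppa3* and *Dppa5a* are genes of pluripotent and early germ cells, and *Gm23722* is a small nucleolar RNA inside *Rnf149* whose reads cannot be told from those of its host. *Dazl* was 6th at 0.494, *Gm4969* only 18th at 0.610 and *Ddx4* 524th at 0.962.

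For *Gm4969* the closest was *Gm7972*, a transcribed pseudogene on chromosome 9, at 0.256, with 9.56, 15.0 and 24.1 in Ctrl, against 56.8, 23.6 and 47.0 in cKO. After it came *H2-Ab1* (0.325), an MHC class II chain, *Ppp4r4* (0.328), a regulatory subunit of protein phosphatase 4, *Mir5119* (0.338), a microRNA gene inside *Cdk12* whose reads cannot be told from its host's, and *Ccdc36* (0.343). *Gm7972*, *Mir5119* and *Ccdc36* shared with *Gm4969* that cKO 1 was their highest library, and reads of the pseudogene may be split with its parent gene. *Dazl* was 15th at 0.378, *Stra8* 186th and *Ddx4* 391st at 0.706. The lists of 5 shared no gene, and both members lay closer to *Dazl* than to each other.

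**Figure D5:**
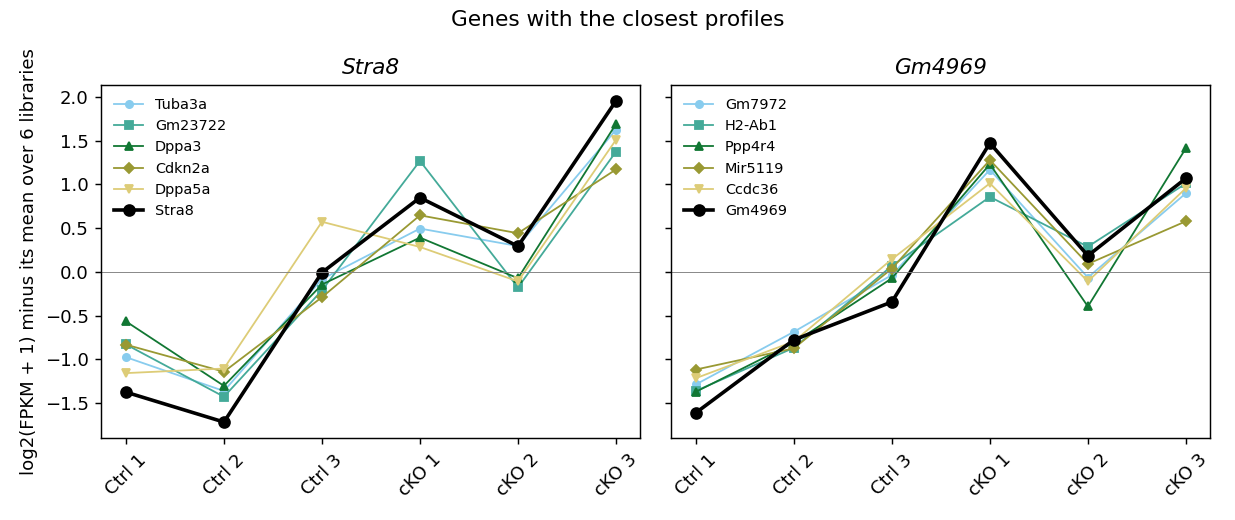
Centred log2(FPKM + 1) levels over the 6 libraries of *Stra8* (left) and *Gm4969* (right) in black, each with the 5 genes of smallest root-mean-square difference in colour. Lines join the points of one gene and imply no order of libraries. *Stra8* and *Tuba3a* peak in cKO 3, *Gm4969* and *Gm7972* in cKO 1.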

How the data were processed

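Total RNA of the 6 ovary libraries was enriched for poly(A) RNA and sequenced as read pairs. The authors aligned reads to GRCm38 (mm10 in the submitters' processing notes) with HISAT2 2.0.5, used featureCounts to count them for each gene and deposited FPKM values, that is, reads scaled to gene length and library size. Neither the annotation release nor strand use in counting is given in the sources used here. Multiplied by gene length and by the library size worked out for each library, 100% of values were whole numbers of reads to within 0.05, and these recovered counts gave the depth and the Poisson intervals. No 2 libraries were identical. Groups and replicate numbers came from the sample titles.

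The 17180 genes that averaged 0.5 FPKM or more were compared in limma 3.58.1 (R 4.3.3) on log2(FPKM + 1), cKO against Ctrl, two-sided, with an intensity trend. Fold changes on this scale understate those of genes with low values. In place of the count model of the study, limma was used on FPKM, the deposited unit, with voom on the recovered reads as an alternative. The study's limit of an unadjusted p below 0.05 was kept, beside Benjamini-Hochberg adjustment. Each p value sets the difference between groups against the spread between libraries within groups, which limma estimates partly from other genes. Whether that is the spread between single animals is not known. Python 3.11.15 with pandas 2.3.3, numpy 2.4.6, scipy 1.17.1 and matplotlib 3.10.9 was used for the rest, and the limma step was tested on simulated data. Named genes are the pair, *Ddx4*, *Dazl*, *Srsf1*, the listed genes past the limit or described for their role, and the 5 closest profiles of each member. The neighbours of the pair, the ratios per *Ddx4* and per *Dazl* of single genes and the order of libraries were added after the values had been seen. The members and the lists were chosen with earlier results of these data known. *Brme1*, of the prophase list, was not analysed here. The alternatives tried were pseudocounts of 0.1 and 0.5, a minimum FPKM of 1 or none, median-ratio scaling, voom on recovered reads, the replicate number as a block, other germ-cell references and each library left out. Splicing was not analysed here, since FPKM per gene holds no junction reads.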

Additional observations from a re-analysis of the deposited data

How the results depend on the processing

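*Stra8* and *Gm4969* kept their direction under the alternatives run for them, which were both pseudocounts, median-ratio scaling, each library left out and, per germ-cell RNA, the other references. Leaving out 1 library gave log2 differences of 1.60 to 2.58 for *Stra8* and 1.47 to 2.18 for *Gm4969*, and of 0.65 to 1.31 and 0.62 to 1.01 over the mean of *Ddx4* and *Dazl*. Another reference gave *Stra8* 1.58 (*Ddx4* alone), 0.47 (*Dazl* alone, with overlapping groups), 1.65 (10 germ-cell genes) and 1.50 (prophase genes). For *Gm4969* the values were 1.33 (*Ddx4* alone), 0.22 (*Dazl* alone, with overlapping groups), 1.40 (10 germ-cell genes) and 1.25 (prophase genes). The log2 ratio of *Gm4969* to *Stra8* ranged from -0.62 to 0.16 and turned without Ctrl 2 (0.16) or cKO 3 (0.14). *Ddx4* reversed to -0.018 without Ctrl 1 and reached 0.94, *Dazl* from 1.18 to 2.18 and their mean from 0.58 to 1.56.

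Counts of calls rested on single libraries. Over all genes they were 201 to 1457 higher and 163 to 1036 lower with 1 library left out, the most without cKO 2, and 736 and 595 with no minimum FPKM. Without Ctrl 1, 4 genes passed the adjusted limit in limma; under the other alternatives, voom included, none did. With 1 library left out, the prophase list had 0 to 22 higher, 1 to 2 lower and a median of 0.30 to 1.12; the competence list 0 to 3, 0 and 0.02 to 0.55; the repressors 0 to 2, 0 to 1 and 0.02 to 0.11; the BMP list 0 to 1, 0 to 1 and -0.03 to 0.11; the retinoic acid list 0, 0 to 2 and -0.19 to 0.11; the early germ-cell list 0 to 4, 0 to 1 and 0.28 to 0.65; and the oocyte list 0, 0 and -0.55 to 0.040. In the prophase list 1 gene was lower under median-ratio scaling, no minimum FPKM and voom, where *Mnd1* was not called. The median of the early germ-cell list was 0.19 with no minimum, where more genes are tested, 1.12 when the pseudocount was 0.1, and 1.18 for voom. Where not stated, the cause of a change was not tested.

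The replicate number did not pair the libraries: deviations of same-numbered libraries from their group means correlated at -0.39, -0.03 and 0.12. As a replicate block it gave 434 genes higher and 247 lower, 7 prophase and 5 early germ-cell genes higher. Few reads lay behind some values: 62 to 290 for *Stra8* in Ctrl, 2 to 24 for *Dppa3* and 2 to 18 for *Utf1*.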
